A study of Rattus norvegicus with 9 samples.

Results

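The mitochondrial respiratory chain and ATP synthase genes of rat liver were taken as all probe sets whose platform annotation gives exactly 1 gene symbol starting with Nduf, with Sdh followed by a, b, c or d, with Uqcr, with Cox4 to Cox8, or with Atp5. This rule found 88 genes on 94 probe sets, of 10411 genes on 12783 probe sets with 1 symbol. Complex I contributed 41 genes on 42 probe sets, complex II 8 genes on 10, complex III 7 genes on 7, complex IV 16 genes on 16 and complex V 16 genes on 19. A further 7 probe sets annotated with several symbols were left out. Each of 9 one-colour arrays carried total RNA of whole liver, with 3 arrays in each of the groups Burn-CLP, Sham-CLP and Sham-Sham. By these names Burn-CLP received a burn and CLP, Sham-CLP a sham procedure and CLP, and Sham-Sham, labelled the control, a pair of sham procedures. The labels do not spell CLP out, which in rodent injury work stands for cecal ligation and puncture, a model of abdominal infection. No strain, sex, age or interval after injury was given in the labels. Nor do they state that a group's arrays stand for different animals, so p-values here reflect the spread among these arrays alone, and that spread may be technical.

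Complexes I to IV of the inner mitochondrial membrane pass electrons from NADH and succinate to oxygen. Complexes I, III and IV pump protons across the membrane while doing so, and complex V, the ATP synthase, lets them return and makes ATP. Each complex consists of a catalytic core, further accessory subunits and, in complexes I, III, IV and V, subunits encoded by mitochondrial DNA, while separate assembly factors help to build it and are not part of the finished enzyme. Hepatocytes are rich in mitochondria and draw on this ATP for urea and glucose synthesis.

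Of the 94 probe sets, 91 had at least 3 of 9 arrays above the floor, a signal of 64.3, and were tested, which covered 86 of the 88 genes. All 9 arrays lay above the floor for 85 of them. The members not tested were Cox6b2, Cox8b and the dimmer of the 2 probe sets of Sdhaf2. All 8 hepatocyte markers lay above the floor on all 9 arrays, with summed signals of 181291 to 187904 in Burn-CLP, 175394 to 185862 in Sham-CLP and 168655 to 178354 in Sham-Sham. Sham-Sham 1 was the least like the rest: its correlations with the other 8 arrays averaged 0.908, and the averages of those arrays were 0.938 to 0.959. A 5S ribosomal RNA control gave deposited signals of 186 to 247 in Burn-CLP, 153 to 219 in Sham-CLP and 68.2 to 158 in Sham-Sham. Precision is limited by the number of arrays.

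In the comparison of Burn-CLP with Sham-Sham, which covers both injuries, 1 of the 91 tested member probe sets rose and none fell. It was Sdhaf1, an assembly factor of complex II, at 2.06 times the Sham-Sham signal. The other members lay mostly slightly higher: 68 of 91 (74.7%) had a higher mean in Burn-CLP, with a median log2 difference of 0.18, a factor of 1.13. Over all 13535 probe sets tested 50.8% were higher and the median was 0.01. A probe set was called at an adjusted p under 0.05 (limma, Benjamini-Hochberg over all probe sets tested), and 0.746% of all probe sets tested were called. At an unadjusted p under 0.05, 13 members were higher and 0 lower, beside 10.0% and 9.85% of all probe sets tested. In 28 members all Burn-CLP arrays lay above all Sham-Sham arrays and in 0 all lay below, beside 11.0% and 10.5% of all probe sets tested. The 95% interval of the log2 difference lay within 1 of zero, a factor of 2, for 77 of the 91 members (84.6%), beside 61.5% of all probe sets tested. In whole liver, fewer cells of a type and less RNA per cell cannot be told apart.

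The small differences showed on single arrays. The median over the 91 probe sets of the log2 signal, centred on each probe set's mean over the 9 arrays, was 0.09, 0.04 and 0.12 on the Burn-CLP arrays. It was 0.02, -0.04 and 0.06 on the Sham-CLP arrays and 0.02, -0.19 and -0.09 on the Sham-Sham arrays. Every Burn-CLP array thus lay above every Sham-Sham array, by as little as 0.04 against 0.02 on Sham-Sham 1, while Sham-CLP overlapped both. The place of Sham-CLP depended on the scaling. With the deposited scaling in place of quantile normalization, the medians were 0.02 to 0.10 in Burn-CLP, 0.02 to 0.07 in Sham-CLP and -0.21 to -0.05 in Sham-Sham, so that Sham-CLP lay above Sham-Sham. Less the median of all probe sets tested on the same array, they were -0.01 to 0.07 in Burn-CLP, 0.09 to 0.13 in Sham-CLP and -0.27 to -0.01 in Sham-Sham, which placed Sham-CLP above Burn-CLP and let Burn-CLP and Sham-Sham overlap at -0.01. With quantile normalization the group means were 0.08 ± 0.04 in Burn-CLP, 0.02 ± 0.05 in Sham-CLP and -0.09 ± 0.11 in Sham-Sham (SD, n = 3 each). Marker sums of hepatocytes, neutrophils, macrophages and red cells did not overlap between Burn-CLP and Sham-Sham. Among the hepatocyte markers, Tat ran at 10110 to 14100 in Burn-CLP and 2978 to 5198 in Sham-Sham. Cps1 ran at 17810 to 22040 and 12510 to 16600. Ttr was lower in Burn-CLP, at 18180 to 21870 against 25650 to 26550, and the other hepatocyte markers overlapped. Those of endothelium, stellate cells and fibroblasts, bile duct, lymphocytes, muscle and exocrine pancreas overlapped. For bile duct they were 745 to 1078 in Burn-CLP and 791 to 1029 in Sham-Sham, and for lymphocytes 776 to 841 and 661 to 954. The 3 neutrophil markers measured, 1 of them above the floor on all 9 arrays, summed to 446 to 1207 in Burn-CLP, 280.0 to 449 in Sham-CLP and 185 to 271 in Sham-Sham. That 1 marker, Cxcr2, overlapped, with 89.9 to 144.6 in Burn-CLP and 68.3 to 154.5 in Sham-Sham. Most of the sum in Burn-CLP came from S100a9, at 237.7 to 787.9, against 21.3 to 89.2 in Sham-Sham, where it reached the floor. The 5 macrophage markers measured were all above the floor on all 9 arrays. They summed to 5485 to 9352 in Burn-CLP, 5382 to 6177 in Sham-CLP and 4099 to 5237 in Sham-Sham. Of these markers only Ctss did not overlap between Burn-CLP and Sham-Sham, at 2074 to 3476 against 1224 to 1616. The 3 red cell markers summed to 9208 to 10751 in Burn-CLP, 10282 to 11724 in Sham-CLP and 11696 to 14367 in Sham-Sham. Of these only Hbb did not overlap, at 8444 to 9888 in Burn-CLP and 10960 to 13470 in Sham-Sham. The ratio of 3′ to 5′ signal of the Gapdh control, a measure of RNA quality, was 0.991 to 1.12 in Burn-CLP, 1.19 to 1.46 in Sham-CLP and 1.12 to 1.32 in Sham-Sham. For the beta-actin control the same ratio was 1.16 to 1.77 in Burn-CLP, 1.15 to 1.26 in Sham-CLP and 1.24 to 1.68 in Sham-Sham. It was highest on Burn-CLP 1, so the 2 controls did not order the groups alike. The part of these markers, of these ratios and of the 5S control in the result was not tested.

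**Figure D1:**
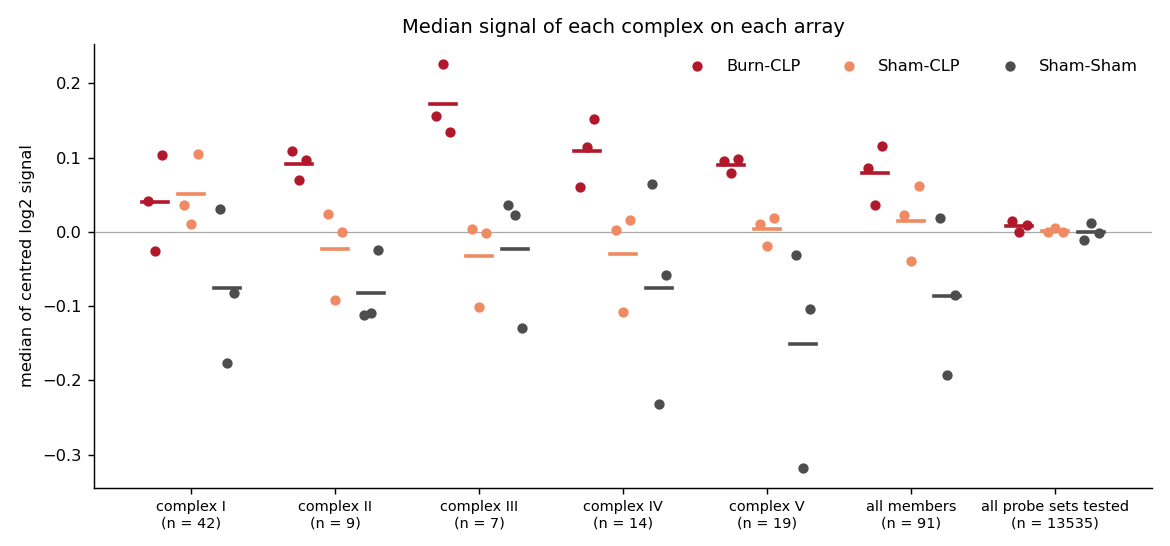
Median centred log2 signal (vertical axis) of the tested probe sets of each complex, of all members and of all probe sets tested, on each of the 9 arrays. Points are arrays, bars are means of 3 arrays; for all members the Burn-CLP arrays lie at 0.04 to 0.12 and the Sham-Sham arrays at -0.19 to 0.02.

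By complex, the median log2 difference between Burn-CLP and Sham-Sham was 0.10 for complex I, 0.12 for complex II, 0.20 for complex III, 0.25 for complex IV and 0.23 for complex V. Complex V had the narrowest Burn-CLP group, with array medians of 0.10, 0.08 and 0.10, against 0.01, -0.02 and 0.02 in Sham-CLP and -0.03, -0.32 and -0.10 in Sham-Sham. These 3 groups did not overlap, but with the deposited scaling Burn-CLP lay at 0.05 to 0.08 and overlapped Sham-CLP at 0.03 to 0.10. Less the median of all probe sets tested on the same array, that scaling gave -0.00 to 0.06 in Burn-CLP, below the 0.08 to 0.16 in Sham-CLP. With quantile normalization, complex II gave 0.11, 0.07 and 0.10 in Burn-CLP against -0.11, -0.11 and -0.02 in Sham-Sham, without overlap. Complex III gave 0.16, 0.23 and 0.13 against 0.04, 0.02 and -0.13, also without overlap. Less the same median, the deposited scaling let complex II overlap, with -0.01 to 0.08 against -0.23 to 0.00. It kept complex III apart, with 0.07 to 0.17 against -0.17 to -0.03. In complex I, with quantile normalization, Burn-CLP overlapped Sham-Sham, with 0.04, -0.03 and 0.10 against 0.03, -0.18 and -0.08. Complex IV, with the largest median, overlapped too, with Burn-CLP 1 at 0.060 and Sham-Sham 1 at 0.065.

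Sdhaf1 encodes a factor that delivers iron-sulfur clusters to the Sdhb subunit of complex II. Its signal was 1055, 1134 and 1304 in Burn-CLP, 819, 825 and 764 in Sham-CLP, and 532, 532 and 631 in Sham-Sham. The 3 groups did not overlap, with Sham-CLP between the other two. The means were 1164 ± 127 in Burn-CLP, 803 ± 33.9 in Sham-CLP and 565 ± 57.1 in Sham-Sham (SD, n = 3 each). The log2 difference between Burn-CLP and Sham-Sham was 1.04 ± 0.16 (SE), a factor of 2.06 with a 95% interval of 1.60 to 2.65 (limma, adjusted p = 0.0324). The call was lost when only the 2 groups compared were fitted (adjusted p = 0.114). It was also lost without Burn-CLP 1 or 2, Sham-CLP 1 or 2, or Sham-Sham 1 or 2 (adjusted p 0.0621 to 0.105), while the log2 difference stayed between 0.96 and 1.12 whichever array was left out.

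None of the 4 structural subunits of complex II was called. Sdha, the flavoprotein that oxidises succinate, differed by -0.11 (adjusted p = 0.796), and Sdhb, the iron-sulfur subunit, by 0.12 (adjusted p = 0.686). The membrane anchors Sdhc and Sdhd differed by 0.21 (adjusted p = 0.498) and, on 2 probe sets, by 0.29 and 0.07 (adjusted p = 0.364 and 0.854). Among the other assembly factors of the complex, Sdhaf4 differed by 0.26 with its groups not overlapping (adjusted p = 0.439), Sdhaf2 by 0.01 (adjusted p = 0.976) and Sdhaf3 by -0.12 (adjusted p = 0.727). None of the 8 probe sets of these subunits and factors passed the test.

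The member with the largest difference was another assembly factor, Ndufaf4, which takes part in the early steps of complex I assembly. Its signal was 1383, 1544 and 646 in Burn-CLP, 762, 512 and 473 in Sham-CLP, and 532, 303 and 299 in Sham-Sham. All Burn-CLP arrays lay above all Sham-Sham arrays, but Burn-CLP 3 lay far below the other 2 arrays of its group and below Sham-CLP 1. The log2 difference of 1.61 ± 0.37 missed the threshold (limma, adjusted p = 0.0725). Ndufaf5, which modifies the core subunit Ndufs7 during assembly, had signals of 199, 173 and 117 in Burn-CLP, 152, 151 and 194 in Sham-CLP, and 28.7, 37.6 and 113 in Sham-Sham. Of the Sham-Sham arrays 2 lay at the floor, so the log2 difference of 1.04 ± 0.28 (adjusted p = 0.104) understates the difference in signal. The remaining assembly factors of complex I gave -0.53 for Ndufaf7, -0.42 for Ndufaf8 and 0.01 for Ndufaf3, none of which passed. Ndufaf7 and Ndufaf8 were brightest on Sham-Sham 1, at 427 and 584.

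**Figure D2:**
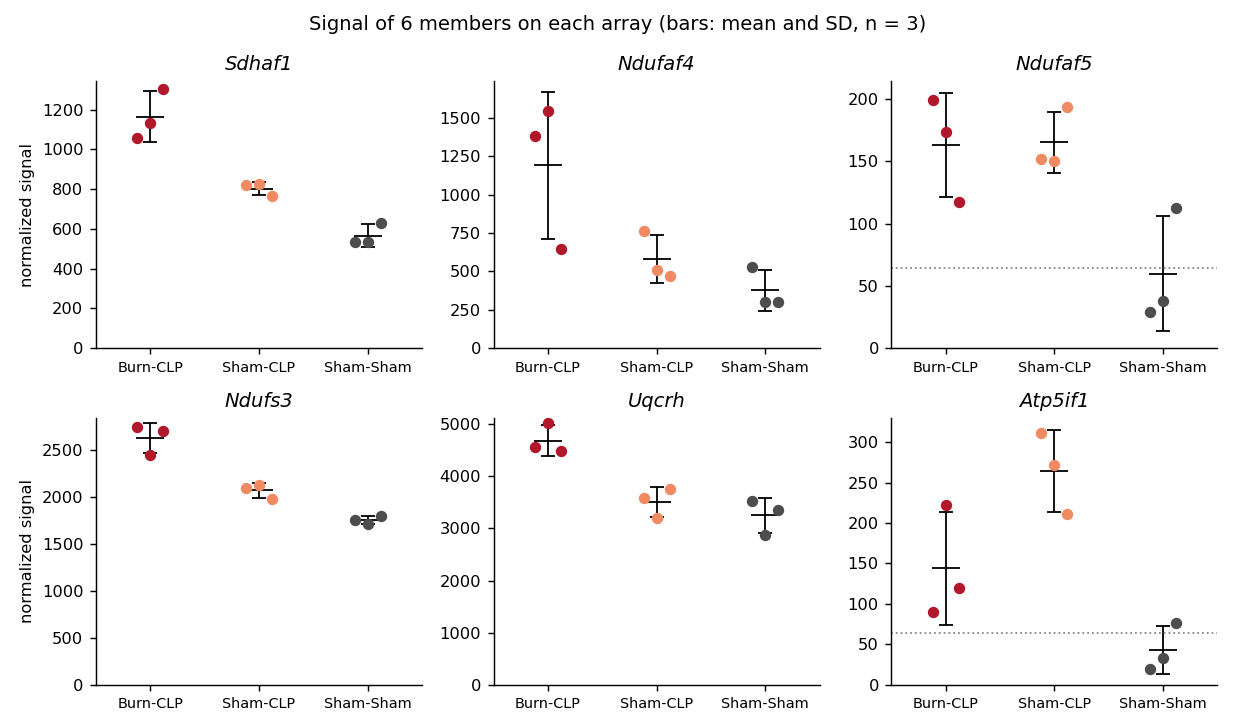
Normalized signal (vertical axis, linear from 0) of 6 members on each of the 9 arrays, with the mean and SD of 3 arrays per group; the dotted line is the floor of 64.3 where it bears on the values. Sdhaf1 runs at 1055 to 1304 in Burn-CLP, 764 to 825 in Sham-CLP and 532 to 631 in Sham-Sham, with no overlap, and Atp5if1 (its probe set with the smallest p) is highest in Sham-CLP.

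The promoters of the called member and of the 4 members with the next smallest p in Burn-CLP against Sham-Sham are shown so that their sequence can be read beside these values. Each runs from 250 bases before to 50 after the RefSeq start on GRCr8, 5′ to 3′ on the strand of the gene, and capitals mark a motif. Sdhaf1 lies at chr1:94704562-94704861 (minus strand), Ndufaf4 at chr5:43401545-43401844 (plus), Ndufs3 at chr3:97339605-97339904 (minus), Ndufaf5 at chr3:147961362-147961661 (plus) and Uqcrh at chr5:134790833-134791132 (minus).
Sdhaf1: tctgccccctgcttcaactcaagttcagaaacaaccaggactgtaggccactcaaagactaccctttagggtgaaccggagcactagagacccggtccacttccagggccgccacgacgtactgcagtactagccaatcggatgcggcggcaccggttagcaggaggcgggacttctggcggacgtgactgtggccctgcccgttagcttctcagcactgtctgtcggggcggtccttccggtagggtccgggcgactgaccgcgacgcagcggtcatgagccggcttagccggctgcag
Ndufaf4: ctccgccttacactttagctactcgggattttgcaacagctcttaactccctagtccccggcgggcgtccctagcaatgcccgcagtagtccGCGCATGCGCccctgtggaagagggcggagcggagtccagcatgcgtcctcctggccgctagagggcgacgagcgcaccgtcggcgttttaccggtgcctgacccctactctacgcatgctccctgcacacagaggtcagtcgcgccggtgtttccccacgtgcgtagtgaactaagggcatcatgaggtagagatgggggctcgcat
Ndufs3: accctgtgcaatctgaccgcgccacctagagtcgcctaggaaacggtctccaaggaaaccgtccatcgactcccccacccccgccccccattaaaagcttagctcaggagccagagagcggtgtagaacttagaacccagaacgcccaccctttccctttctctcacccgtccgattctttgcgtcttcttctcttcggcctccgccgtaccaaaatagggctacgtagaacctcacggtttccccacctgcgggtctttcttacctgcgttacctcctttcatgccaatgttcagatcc
Ndufaf5: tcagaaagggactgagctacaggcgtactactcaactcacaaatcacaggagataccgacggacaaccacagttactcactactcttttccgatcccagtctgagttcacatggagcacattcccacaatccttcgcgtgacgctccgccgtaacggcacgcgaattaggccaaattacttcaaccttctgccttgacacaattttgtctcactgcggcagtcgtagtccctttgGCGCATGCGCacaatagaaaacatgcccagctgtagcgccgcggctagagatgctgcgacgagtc
Uqcrh: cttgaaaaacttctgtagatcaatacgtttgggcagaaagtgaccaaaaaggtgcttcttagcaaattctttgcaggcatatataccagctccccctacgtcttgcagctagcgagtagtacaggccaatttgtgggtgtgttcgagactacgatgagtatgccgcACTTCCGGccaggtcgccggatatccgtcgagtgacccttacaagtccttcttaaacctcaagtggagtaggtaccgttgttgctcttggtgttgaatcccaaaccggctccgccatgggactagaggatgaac
The capitals are the NRF1 motif in Ndufaf4 and Ndufaf5, and the GABPA motif CCGGAAGT read on the opposite strand in Uqcrh. Sdhaf1 and Ndufs3 held none of the 4 motifs searched.

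These motifs belong to factors known as regulators of nuclear genes for mitochondrial proteins, and were searched on both strands in the 80 member genes with a promoter in the RefSeq table. The NRF1 motif was in 17 member promoters (21.2%), beside 6.09% of 19005 promoters of protein-coding genes of the same length. YY1, spelled AAGATGGCG, was in 11 (13.8%), beside 2.29%. GABPA was in 8 (10.0%), beside 4.99%, and ESRRA, spelled TCAAGGTCA, in 2 (2.5%), beside 0.353%. NRF1 motifs were in 5 of 15 complex V promoters and in 0 of 12 complex IV promoters. A match is a description of the letters, and nothing on binding was measured.

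Of the 6 core subunits of complex I measured here, 5 had a higher mean in Burn-CLP than in Sham-Sham. Over all probe sets tested the share was 50.8%. These core subunits lie in the peripheral arm that takes up electrons. Ndufs3 stood out for its narrow groups. Its signal was 2746, 2452 and 2707 in Burn-CLP, 2097, 2135 and 1986 in Sham-CLP, and 1759.5, 1717 and 1802 in Sham-Sham. No group overlapped another, and the log2 difference between Burn-CLP and Sham-Sham was 0.58 ± 0.15 (adjusted p = 0.0903), short of the threshold. Ndufv1, which binds NADH, differed by 0.26 and Ndufs7 by 0.22, with groups that did not overlap, and Ndufs1 by 0.22. Of the 29 accessory probe sets, 20 had a higher mean in Burn-CLP, with a median of 0.10. The accessory subunit with the largest difference was Ndufa5, at 331, 466 and 339 in Burn-CLP, 518, 478 and 388 in Sham-CLP, and 168, 134 and 387 in Sham-Sham. Sham-Sham 3 lay inside the Burn-CLP range and just below the lowest Sham-CLP array, and the log2 difference was 0.86 (adjusted p = 0.228). The lowest accessory value was that of Ndufc1, at -0.31 (adjusted p = 0.381). Ndufa4, placed here by its prefix but now regarded as a subunit of complex IV, differed by 0.08 (adjusted p = 0.811), and its paralog Ndufa4l2 by 0.44 (adjusted p = 0.273).

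In complex III, 6 of 7 members had a higher mean in Burn-CLP than in Sham-Sham. Uqcrh, the hinge protein next to cytochrome c1, had signals of 4556, 5016 and 4482 in Burn-CLP, 3583, 3191 and 3754 in Sham-CLP, and 3519, 2879 and 3352 in Sham-Sham. All Burn-CLP arrays lay above all others, with a log2 difference from Sham-Sham of 0.53 ± 0.16 (adjusted p = 0.138). Uqcrq, a small subunit, differed by 0.28 (adjusted p = 0.391), and the core protein Uqcrc1 by -0.00 (adjusted p = 0.994).

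In complex IV, 10 of 14 members (71.4%) had a higher mean in Burn-CLP than in Sham-Sham, beside 74.7% of all members and 50.8% of all probe sets tested. Without Cox7a2l, Cox6c-ps1 and the lung, heart and muscle isoforms, 8 of 9 subunits were higher, with a median of 0.26. None passed the test. Cox6b1 had signals of 3185, 3015 and 3399 in Burn-CLP, 2652, 2868 and 3049.6 in Sham-CLP, and 2189.6, 1912 and 2843 in Sham-Sham. Its Burn-CLP arrays lay above its Sham-Sham arrays, with a log2 difference of 0.49 ± 0.18 (adjusted p = 0.2001). Cox5a differed by 0.47 (adjusted p = 0.272), the liver form Cox6a1 by 0.39 (adjusted p = 0.274), the liver form Cox8a by 0.31 (adjusted p = 0.368) and the widespread form Cox4i1 by -0.03 (adjusted p = 0.937). The 3 tested isoforms known from lung, heart or skeletal muscle had lower means in Burn-CLP, and none passed. Cox4i2, the lung form, had signals of 207, 176 and 210.3 in Burn-CLP, 157, 170.2 and 228 in Sham-CLP, and 418, 207 and 218 in Sham-Sham. Only Sham-Sham 1 stood out, and the log2 difference was -0.43 (adjusted p = 0.407). Cox7a1, a muscle and heart form, was at the floor on 6 arrays and reached 267 on Sham-Sham 1, and differed by -0.87 (adjusted p = 0.29). Cox6b2, the testis form, was above the floor on Sham-Sham 1 alone, at 147. Cox6a2, a muscle and heart form, differed by -0.26 (adjusted p = 0.662), and Cox8b was at the floor on all 9 arrays. Of 5 muscle markers measured 1 was above the floor on all 9 arrays. It was Ckm, the muscle creatine kinase, at 275, 270.2 and 250.2 in Burn-CLP, 231, 249 and 227 in Sham-CLP, and 523, 338 and 274 in Sham-Sham. Summed, the 5 markers gave 339 to 429 in Burn-CLP, 365 to 373 in Sham-CLP and 379.5 to 719 in Sham-Sham, and their part in the isoform values was not tested. Cox6c-ps1, annotated as a pseudogene of Cox6c, cannot be told apart from its parent where probes match both.

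In complex V, 15 of 19 probe sets had a higher mean in Burn-CLP than in Sham-Sham and 9 did not overlap, all of them higher, beside 11.0% higher and 10.5% lower of all probe sets tested. Of these 9, 3 were the probe sets of 1 gene, the inhibitor Atp5if1. They differed by 0.97, 1.08 and 0.43 (limma, adjusted p = 0.147, 0.243 and 0.255), the first with Sham-Sham arrays at the floor. The catalytic F1 subunit Atp5f1b had signals of 15350.0, 14701 and 14277 in Burn-CLP, against 15430.0, 13805 and 15201 in Sham-Sham, which overlapped fully, with a log2 difference of -0.00. The F1 head and central stalk together had a median of 0.04. The 4 peripheral stalk members, which hold the head in place, had a median of 0.21. Atp5mc3, a gene for the rotating c ring, had 12785, 11800.0 and 11521 in Burn-CLP, 10170.0, 10201 and 10780.0 in Sham-CLP, and 10085, 10338 and 9939 in Sham-Sham. Its Burn-CLP arrays lay above all others, with a log2 difference of 0.25 (adjusted p = 0.363). Atp5mk, a small membrane subunit, differed by 0.53 (adjusted p = 0.212), Atp5me by -0.17 and -0.02 on 2 probe sets, and Atp5f1e by -0.12.

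**Figure D3:**
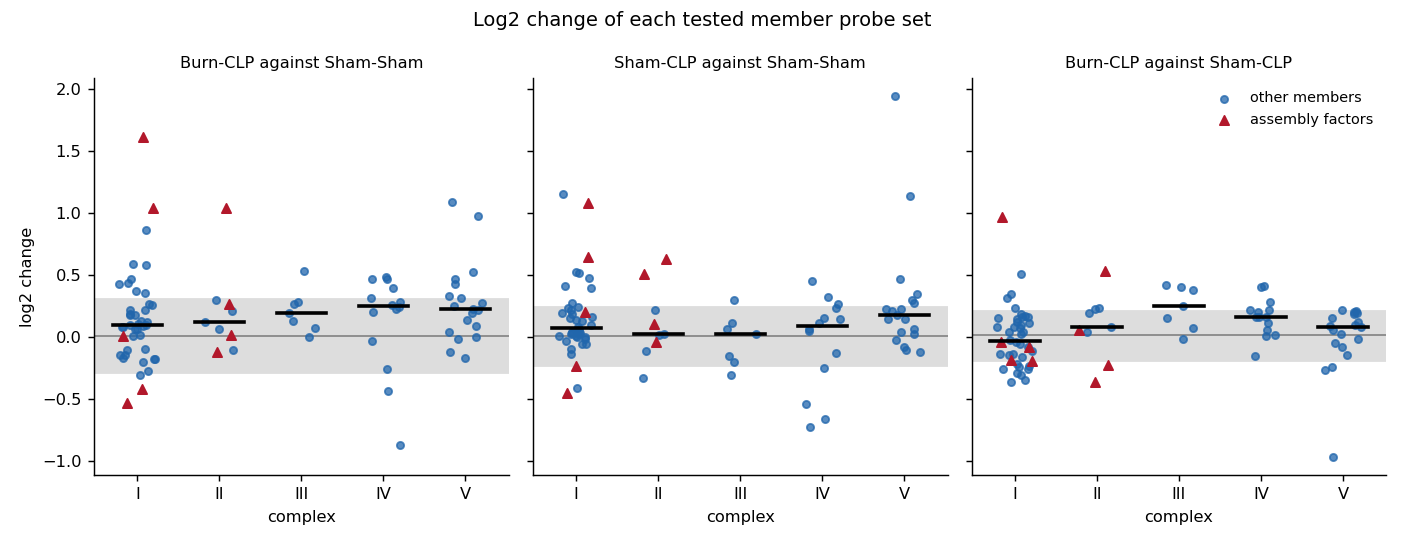
Log2 difference (vertical axis) of each of the 91 tested member probe sets by complex in the 3 comparisons. Triangles are assembly factors, black bars are medians of the complex, the grey band holds the middle 50% of all probe sets tested; Ndufaf4 tops the left panel at 1.61 and Atp5if1 the middle panel at 1.94.

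In the comparison of Sham-CLP with Sham-Sham, which covers CLP alone, 0 of 91 members were called (limma), beside 0.0591% of all probe sets tested. The members' median log2 difference was 0.08, beside 0.00 for all probe sets, and 66 of 91 (72.5%) had a higher mean in Sham-CLP, beside 50.5%. At an unadjusted p under 0.05, 9 were higher and 0 lower, beside 5.83% and 5.90% of all probe sets tested. The groups did not overlap for 16 members higher and 1 lower, beside 8.10% and 8.65%. With the deposited scaling they did not overlap for 27 higher and 1 lower, beside 7.01% and 11.9%, and without Sham-Sham 2 for 18 higher and 9 lower, beside 13.5% and 13.3%. The interval lay within a factor of 2 for 76 of 91 members (83.5%), beside 66.9%. Without Sham-Sham 2 the share with a higher mean was 62.6%. The complex medians were 0.07 for complex I, 0.02 for complex II, 0.02 for complex III, 0.09 for complex IV and 0.18 for complex V. Both comparisons use the same Sham-Sham arrays, so their values are set side by side and not related to each other.

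Among the members, the smallest p in this comparison belonged to Atp5if1, the inhibitor that stops the ATP synthase from running backwards. Its probe set with the smallest p had signals of 89.7, 222 and 119.9 in Burn-CLP, 311, 272 and 211 in Sham-CLP, and 19.4, 32.5 and 76.3 in Sham-Sham. All Sham-CLP arrays lay above all Sham-Sham arrays, of which 2 were at the floor, with a log2 difference of 1.94 ± 0.31 (adjusted p = 0.0889). The other probe sets of the gene gave 1.14 and 0.34, so the 3 differed by up to 1.60. The probe set of the gene that lay above the floor on all 9 arrays had 464, 428 and 414 in Burn-CLP, 441, 426 and 368 in Sham-CLP, and 272, 304 and 411 in Sham-Sham. There Sham-Sham 3 overlapped Sham-CLP. The probe set given at the start of the paragraph was called when only the 2 groups were fitted, without Burn-CLP 2, and without Sham-Sham 3. Without Sham-Sham 3 the calls over all probe sets tested numbered 347 (2.58%), against 8 with all arrays.

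Sdhaf1 differed by 0.51 ± 0.16 between Sham-CLP and Sham-Sham (adjusted p = 0.328). Sdhaf4, which helps to join Sdha to Sdhb, had signals of 265, 235 and 266 in Burn-CLP, 404, 280.1 and 310.03 in Sham-CLP, and 227, 214 and 196 in Sham-Sham. Its Sham-CLP arrays lay above both other groups, with a log2 difference from Sham-Sham of 0.63 ± 0.18 (adjusted p = 0.306). Sdha differed by -0.33 (adjusted p = 0.54) and Sdhb by -0.12. In complex I, Ndufa5 differed by 1.16 (adjusted p = 0.328) and Ndufaf5 by 1.08 (adjusted p = 0.284), both with groups that did not overlap. Both were called without Sham-Sham 3, the array with the highest value of its group for each, where 347 of all probe sets tested (2.58%) were called. Ndufaf4 differed by 0.65, Ndufaf7 by -0.45 and Ndufb1 by -0.41, none of which passed. In complex III the Rieske protein Uqcrfs1 differed by -0.20 and Uqcrq by 0.30, and in complex IV Cox6b1 by 0.32 and Cox6a2 by -0.66. The F1 subunits Atp5f1b and Atp5f1c differed by -0.12 and -0.11.

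In the comparison of Burn-CLP with Sham-CLP, which sets the burned group against CLP alone, 0 of 91 members were called (limma), beside 0.0148% of all probe sets tested. The median log2 difference was 0.08, beside 0.02, and 58 of 91 (63.7%) had a higher mean in Burn-CLP, beside 52.4%. With the deposited scaling in place of quantile normalization, 53.3% of members and 64.0% of all probe sets had a higher mean in Burn-CLP, so the members lay below the rest instead of above it. At an unadjusted p under 0.05, 5 were higher and 1 lower, beside 3.90% and 5.19%. The groups did not overlap for 19 members higher and 3 lower, beside 9.61% and 9.22%, and with the deposited scaling for 8 higher and 9 lower. The interval lay within a factor of 2 for 83 of 91 members (91.2%), beside 72.6%. The complex medians were -0.03 for complex I, 0.08 for complex II, 0.25 for complex III, 0.16 for complex IV and 0.08 for complex V, the last -0.03 with the deposited scaling. That scaling gave 0.15 for complex III, beside 0.11 for all probe sets tested.

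Single members again did not pass. Sdhaf1 differed by 0.53 ± 0.16 (adjusted p = 0.389), Ndufaf4 by 0.97 (adjusted p = 0.477) and Ndufs3 by 0.34 (adjusted p = 0.533). Uqcrfs1, the Rieske iron-sulfur protein of complex III, had signals of 6385, 6949.8 and 6407 in Burn-CLP, 4769, 5509 and 4717 in Sham-CLP, and 5509, 5899 and 5822 in Sham-Sham. Its Burn-CLP arrays lay above all others, with a log2 difference from Sham-CLP of 0.40 ± 0.15 (adjusted p = 0.477). Uqcrh differed by 0.42 (adjusted p = 0.486). In complex IV, 13 of 14 members (92.9%) had a higher mean in Burn-CLP, beside 52.4% of all probe sets tested. They included all 9 subunits other than Cox7a2l, Cox6c-ps1 and the lung, heart and muscle isoforms, with a median of 0.16. The deposited scaling was read less the median of all probe sets tested on the same array. There complex IV lay at -0.03 to 0.12 in Burn-CLP and overlapped Sham-CLP at 0.04 to 0.11. Cox7a2l, which helps to join complexes III and IV into supercomplexes, differed by 0.41 (adjusted p = 0.575). Sdhb differed by 0.24 with groups that did not overlap. Members with a lower mean in Burn-CLP included Atp5if1 on the probe set with the smallest p, at -0.97 (adjusted p = 0.423), beside 0.08 and -0.05 on its other probe sets. Sdhaf4 differed by -0.36 with groups that did not overlap (adjusted p = 0.589), Ndufc1 by -0.36 and Ndufa6 by -0.31.

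Other genes of the mitochondrion were read from 9 lists with measured genes, and 0 of their probe sets were called in any comparison (limma). At an unadjusted p under 0.05 they numbered 44 in Burn-CLP against Sham-Sham, 14 in Sham-CLP against Sham-Sham and 20 in Burn-CLP against Sham-CLP, of 227 tested. These were 19.4%, 6.17% and 8.81% of the lists, beside 19.9%, 11.7% and 9.09% of all probe sets tested. In Burn-CLP against Sham-Sham the median log2 difference was 0.30 for 19 genes of mitochondrial carriers and porins, 0.26 for 23 genes of protein import and 0.25 for 15 genes of proteases, chaperones and antioxidants. It was 0.15 for 10 regulators of biogenesis, 0.08 for 16 genes of pyruvate dehydrogenase and the citric acid cycle, 0.02 for 6 pyruvate dehydrogenase kinases and phosphatases, and 0.01 for 74 mitochondrial ribosomal proteins. It was -0.03 for 25 respiratory chain genes outside the prefixes, mostly assembly factors and cytochrome c1, and -0.23 for 13 genes of electron carriers and ubiquinone synthesis. The smallest p in these lists belonged to Lonp1, the matrix protease, at -0.89 (adjusted p = 0.0538), and to Timm8a1, an import chaperone, at 1.29 (adjusted p = 0.0575). Another probe set of Timm8a1 overlapped, with 517, 786 and 566 in Burn-CLP and 584, 381 and 389 in Sham-Sham. Etfdh, which feeds electrons of fatty acid oxidation to ubiquinone, differed by -0.53 (adjusted p = 0.139), and Pdhb, a pyruvate dehydrogenase subunit, by 0.60 (adjusted p = 0.0958). The medians of the 9 lists ran between -0.16 and 0.39 in Sham-CLP against Sham-Sham and between -0.17 and 0.19 in Burn-CLP against Sham-CLP. No probe set carried a symbol of a gene encoded by mitochondrial DNA, so those subunits were not analysed here.

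**Figure D4:**
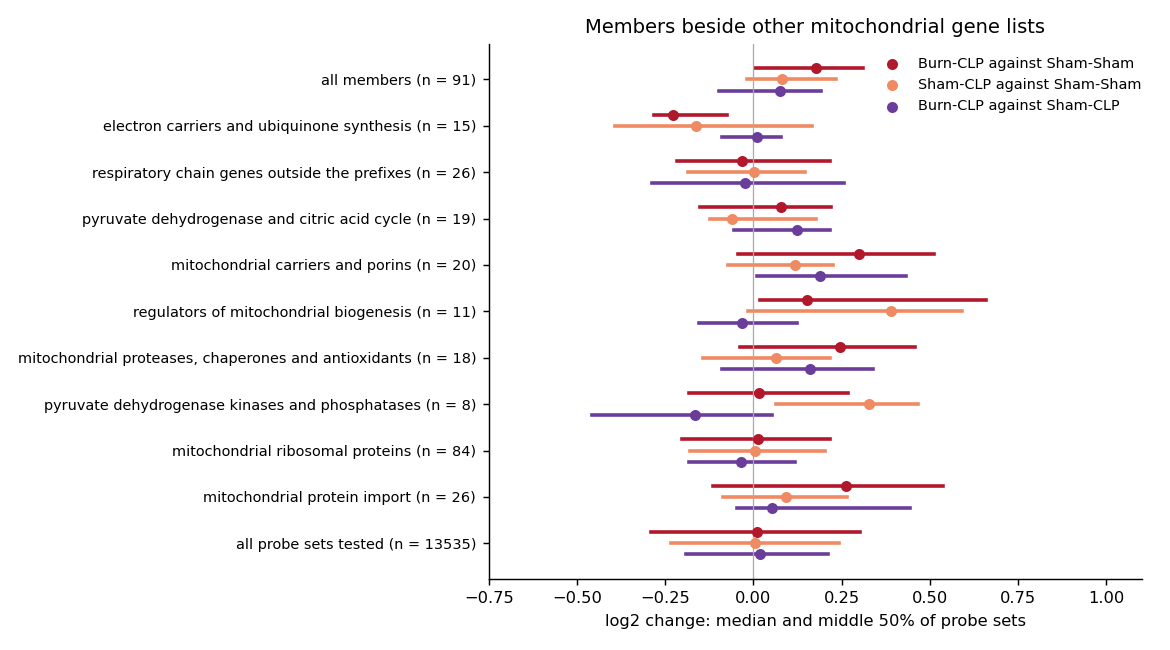
Median (point) and middle 50% (line) of the log2 difference (horizontal axis) of the members, of 9 other mitochondrial gene lists and of all probe sets tested, in the 3 comparisons. In Burn-CLP against Sham-Sham the members lie at 0.18, electron carriers and ubiquinone synthesis at -0.23 and mitochondrial ribosomal proteins at 0.01.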

How the data were processed

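Total RNA of whole rat liver was measured in 3 groups of 3 arrays. The authors deposited 1 linear intensity per array for each of 15923 probe sets; their image processing is not stated in the labels. The mean after trimming 2% at each end was close to 500.2 on all 9 arrays, so each had been scaled to a common level. No test used the 57 control probe sets. Arrays were quantile normalized, signals under the 20th percentile of all values (64.3) were raised to it as a floor before taking log2. Probe sets with at least 3 of 9 arrays above the floor were tested (13535) in 1 model of all 9 arrays (lmFit, then eBayes; limma 3.58.1, R 4.3.3), and called at a Benjamini-Hochberg adjusted p under 0.05. The steps were tested on simulated data. The members and gene lists were chosen with earlier results of these data known.

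Symbols came from the platform annotation, and all 94 Entrez identifiers matched the GRCr8 RefSeq table with 0 symbols changed. Promoters came from RefSeq on GRCr8. Named genes are every called member, the 2 probe sets of each complex with the smallest p in each direction, tissue isoforms, complex II subunits, assembly factors and genes whose probe sets differed by over 1. Subunits described beside them as the rest of a group, and which related genes of those with the smallest p were given, were chosen after their values were seen. Alternatives were the deposited scaling, no filter on dim probe sets, a filter of all 9 arrays, log2 of the value plus 32, fits of 2 groups, a variance trend, the replicate number as a block, and each array left out in turn.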

Additional observations from a re-analysis of the deposited data

How the results depend on the processing

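Over the alternatives run, the number of members called in Burn-CLP against Sham-Sham was 2 with no filter on dim probe sets (Ndufs3 and Sdhaf1), 3 with a variance trend (Ndufaf4, Ndufs3 and Sdhaf1), 0 with only the 2 groups fitted, and 0 to 3 with 1 array left out. All probe sets called numbered 101, and 280 with the trend, 13 with 2 groups, 59 with the replicate block and 19 to 645 with 1 array left out. In Sham-CLP against Sham-Sham, 1 member (Atp5if1) was called with 2 groups fitted and 0 to 3 with 1 array left out, 3 of them without Sham-Sham 3, where all calls numbered 347 against 8 with all arrays. In Burn-CLP against Sham-CLP 0 members were called under every alternative.

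The labels do not state a pairing by replicate number. Same-numbered arrays had deviations from their group means that correlated at -0.026 to 0.081. For differently numbered arrays of 2 groups the correlations were -0.072 to 0.037. Values this small cannot decide whether the numbers pair the arrays. With the replicate block, 0 members were called in Burn-CLP against Sham-Sham, and Sdhaf1 had an adjusted p of 0.0609; its adjusted p ran from 0.0111 to 0.114 over 16 alternatives, with the call kept in 8 and lost in 8.

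With the deposited scaling, the Sham-CLP against Sham-Sham medians were 0.19 for all members, 0.17 for complex I, 0.10 for complex II, 0.13 for complex III and 0.22 for complex IV, and the median of all probe sets was -0.08. The Burn-CLP against Sham-CLP medians were 0.15 for complex III and -0.029 for complex V, and the median of all probe sets was 0.11. With no filter that of complex II was 0.13. Leaving out 1 array gave 0.0362 to 0.17 for complex I in Burn-CLP against Sham-Sham, lowest without Burn-CLP 3 and highest without Burn-CLP 2. It gave, for Sham-CLP against Sham-Sham, 0.0485 to 0.13 for all members and -0.0122 to 0.17 for complex IV (both lowest without Sham-Sham 2 and highest without Sham-Sham 1), 0.0464 to 0.13 for complex I, 0.024 to 0.0837 for complex II, -0.0639 to 0.0449 for complex III and 0.0657 to 0.23 for complex V, and for Burn-CLP against Sham-CLP 0.0489 to 0.097 for all members, -0.0346 to 0.0281 for complex I, 0.0474 to 0.13 for complex V, 0.0731 to 0.13 for complex II and 0.14 to 0.34 for complex III. The cause was not tested. Of 101 named values, 76 kept their sign under every alternative run and 25, none of them called, did not.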
